A study of Mus musculus with 72 samples.

Results

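Messenger RNA was compared between 3 mouse embryonic stem cell lines without functional Nup133 and 3 control samples, all taken at day 3 of a neuroectodermal differentiation. These 6 samples were chosen from their labels alone and are 6 of the 18 biological samples of the study, or 24 of its 72 technical files. The controls were the line HM1 in 2 biological replicates (Nup133+/+, 40 chromosomes, XY) and the blastocyst-derived line 1A4 (Nup133+/+, Sox1gfp/+, 40 chromosomes, XY). Knockout lines 14 (Nup133-/-, 40 chromosomes, XY) and 19 (Nup133-/-, likely 40 chromosomes, XY) were derived from HM1 by CRISPR/Cas9 editing. Knockout line 319 was blastocyst-derived and carries the merm alleles (Nup133merm/merm, Sox1gfp/+, 42 chromosomes, XX, with an extra chromosome 8 and an extra chromosome 12). All 6 samples had been taken off feeder fibroblasts, grown without LIF in N2B27 medium until day 2 and then given 1 µM all-trans retinoic acid for 24 h. Each knockout genotype is thus represented by separate lines with 1 sample each, and line 1A4 also by 1 sample. Except for the 2 biological replicates of HM1, the labels name no separate cultures, so p-values measure the spread between samples. That spread was estimated over all 18 biological samples of the study, earlier days included, and not over these 6 alone. Samples of the same line from different days counted as independent in it. In bulk samples of this kind, fewer cells of a type and less RNA per cell cannot be told apart.

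Nup133 belongs to the Y-complex, the scaffold that forms the outer rings of the nuclear pore and is needed for pore assembly and for attachment of pores to chromatin. Retinoic acid binds nuclear receptors that pair with retinoid X receptors on DNA. In neural differentiation it moves cells towards hindbrain and spinal cord identities by opening the Hox clusters from their 3′ towards their 5′ ends, and it also induces the enzyme that degrades it. Embryonic stem cells that leave pluripotency in N2B27 medium pass through an epiblast-like state, and retinoic acid then favours neural progenitors over mesoderm and endoderm.

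The 6 samples held between 25792615 and 54386782 gene counts, and between 15968 and 17726 genes were detected per sample. The deposited counts were scaled to CPM, the usual measure relative to the library total, with TMM, a scaling that assumes most genes do not differ. In a principal component analysis of the 6 samples, the first component (47.4% of the variance) held the controls between -46.4 and -30.2 and the knockout lines at 36.1 (line 14), 73.0 (line 19) and 13.4 (line 319). The second component (30.9%) set line 319 apart at -77.3. Values per sample are given below in the order HM1 replicate 1, HM1 replicate 2 and line 1A4 for the controls, then lines 14, 19 and 319 for the knockout. Nup133 itself (chromosome 8, 123897123 to 123949265, minus strand, GRCm38, 26 exons) stood at 187, 180 and 216 CPM in the controls and at 17.2, 24.1 and 14.3 CPM in the knockout lines. The groups did not overlap, and the log2 fold change was -3.40 ± 0.27 (SE).

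The chromosome content of the lines was checked because the labels give it. Of the 9 Y-linked genes tested, 7 were lower in the knockout, and their summed level was 108, 116 and 155 CPM in the controls against 4.41, 5.94 and 0.181 CPM. Lines 14 and 19 are labelled XY (line 19 as likely), so their Y-linked transcripts went against the label. Over genes with at least 5 CPM, the median log2 difference of a line from the controls of its own background was taken per chromosome. On chromosome 11 it was -0.31, -0.34 and -0.27 in lines 14, 19 and 319, although no label gives an abnormal chromosome 11. On chromosome 8 it was -0.07, -0.38 and -0.56. Line 319 is labelled with an extra chromosome 8, so its chromosome 8 genes also went against the label. Chromosome 12 stood at 0.04, 0.15 and 0.45, and the X chromosome at 0.05, 0.20 and 0.47, with line 319 the highest on both. On the other 16 autosomes the medians lay between -0.107 and 0.240. The part of these chromosome-wide shifts in the results below was not tested. Counts with each chromosome scaled by itself are given for the gene lists below, together after the lists where not beside them.

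**Figure D1:**
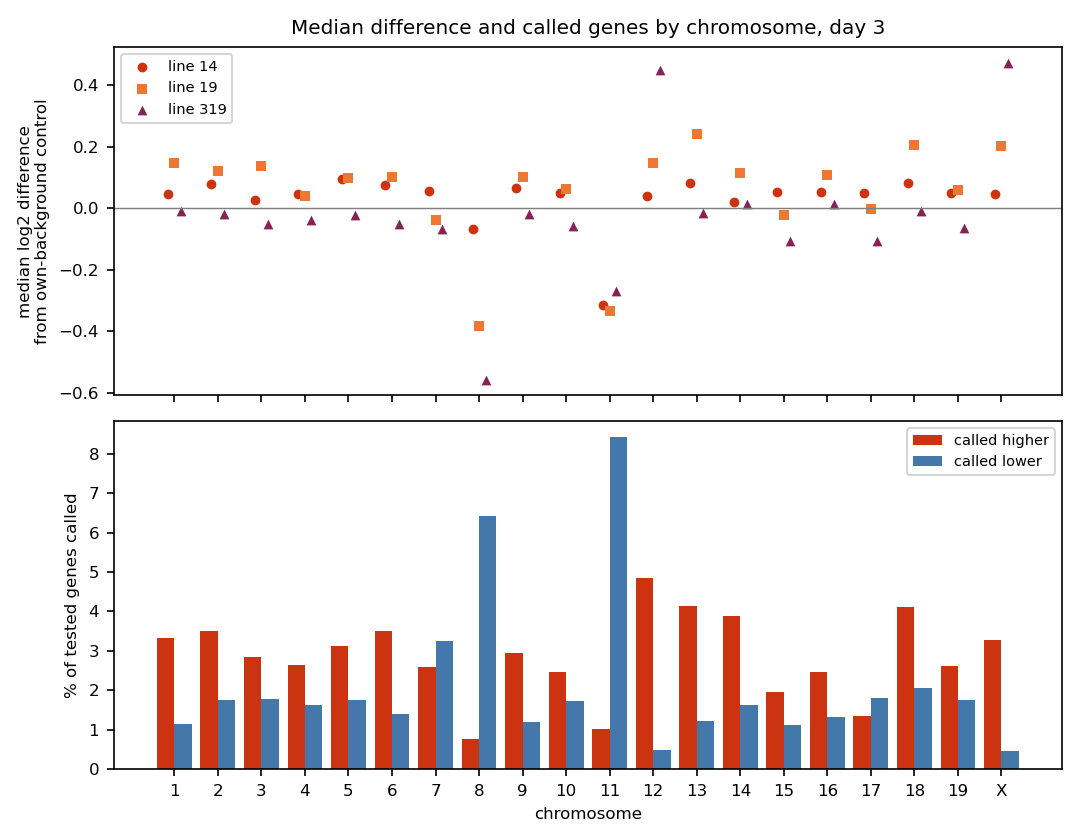
The upper panel plots, for each chromosome, the median log2 difference of lines 14, 19 and 319 from the controls of their own background over genes with at least 5 CPM and the Y chromosome is not drawn. The lower panel plots the percentage of tested genes called higher or lower in the knockout. Chromosome 11 lies near -0.3 in all 3 lines and has 8.42% of its genes called lower.

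Of 18273 genes tested at day 3, 948 (5.19%) differed between knockout and control samples at an adjusted p below 0.05 in edgeR's quasi-likelihood test. Of these, 502 (2.75% of the genes tested) were higher in the knockout and 446 (2.44%) were lower. An unadjusted p below 0.05 was found for 4004 genes (21.9%), 2052 higher and 1952 lower. A further view without a test is that the 3 knockout values lay above all 3 control values for 3211 genes (17.6%) and below them for 3215 genes (17.6%). The genes called higher were mostly weakly expressed, with a median level of 3.50 CPM, against 17.6 CPM for those called lower and 13.7 CPM for all genes tested. Their changes were also larger: 362 of the 502 rose at least 2-fold and 152 at least 4-fold, while 231 of the 446 fell at least 2-fold and 72 at least 4-fold. Protein-coding genes made up 458 of the 502 and 407 of the 446. Chromosome 11 held 125 of the genes called lower, 28.0% of them, although it holds 8.13% of the genes tested. Chromosome 8 held a further 59 of the lower genes and 7 of the higher ones. With each chromosome scaled by itself, an alternative chosen after seeing the data, 754 genes were called, 428 higher and 326 lower, and chromosome 11 then held 35 higher and 25 lower.

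The number of called genes rested on single samples, each left out here with the day 0 and day 2 samples of the same series. With HM1 replicate 1 left out it was 37, and with HM1 replicate 2 left out it was 17. Leaving out line 1A4 gave 354 and leaving out line 14 gave 461. Leaving out line 19 gave 1080, and leaving out line 319 gave 2020. Of the 122 called genes that the naming rule gives, 106 lost their call when HM1 replicate 1 was left out and 111 when HM1 replicate 2 was. Nup133, Nup210l, Chrna3, Acta2, Aim2, Doc2a, Ezh1, Pdgfb, Pik3ip1 and Pold2 stayed called under each of the settings run on them, which were 20 or fewer per gene. Over the called genes named, the adjusted p ranged from 0.0011 to 0.28 without HM1 replicate 1 and from 0.0011 to 0.30 without HM1 replicate 2.

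The 3 knockout lines moved in the same direction for nearly all called genes. Against the controls of its own background, each line had the same sign in 945 of the 948 called genes (99.7%), and over all genes tested this held for 9840 of 18273 (53.9%). Because the calls were made on these same lines, that agreement is a description. The medians over the higher genes were 1.28, 1.49 and 1.23 on the log2 scale in lines 14, 19 and 319, and over the lower genes they were -0.88, -1.24 and -0.95. In 391 genes all 3 lines differed at least 2-fold in the called direction, 256 higher and 135 lower. Of the 3 exceptions, Ccr1l1 and Irx3 are given here, named after their values were seen. Ccr1l1 (chromosome 9), a chemokine receptor-like gene, stood at -6.46, -6.46 and 0.58. Irx3 (chromosome 8) stood at 1.85, 2.49 and -0.03, so line 319 was the one that differed in both.

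Line 319 and its control gave a check on samples that had not chosen the genes. In the HM1-derived samples alone, 1121 of 18512 genes (6.06%) were called between lines 14 and 19 and the 2 HM1 replicates, and 1103 of them could be followed in line 319 against line 1A4. The sign was the same for 912 of these (82.7%), against 12003 of 18131 genes tested in both (66.2%). It was the same for 428 of 494 higher genes (86.6%) and for 484 of 609 lower genes (79.5%). In line 319 the median log2 difference was 0.84 for the higher genes and -0.56 for the lower ones. The medians in the HM1-derived lines, 1.49 and -1.40, are those the calls were made on and are a fitted fold change, so the sizes cannot be set against each other. Over all genes tested, those higher in the HM1-derived lines had medians of 0.303 there and 0.160 in line 319, and those lower had -0.370 and -0.210. Without chromosomes 8, 11, 12, X and Y the same sign was found for 666 of 817 called genes (81.5%) and for 65.1% of all genes. Line 319 against line 1A4 has 1 sample on each side, and its difference from the HM1-derived lines passed the test for 4 genes (0.0219%), all on X or Y.

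**Figure D2:**
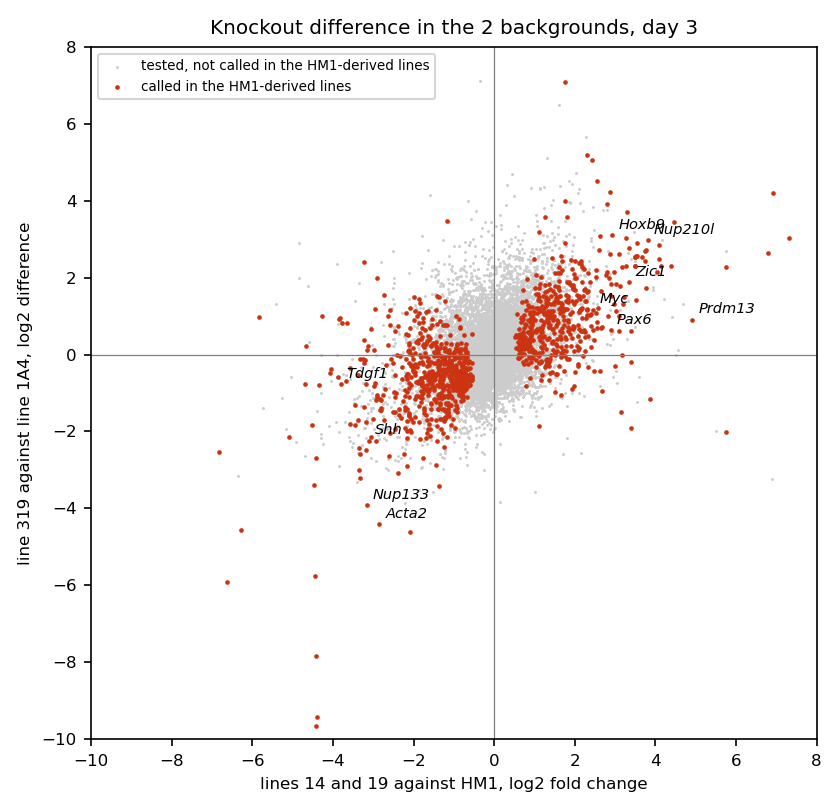
Each point is 1 of the 18129 genes drawn, with the log2 fold change of lines 14 and 19 against HM1 on the horizontal axis and the log2 difference of line 319 from line 1A4 on the vertical axis. Points in red were called in the HM1-derived lines, and most of them lie in the lower left and upper right, 912 of 1103 with the same sign.

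The gene with the smallest p among those that rose was Nup210l (chromosome 3, 90104134 to 90212048, plus strand, 40 exons), a paralogue of the pore membrane glycoprotein Nup210 that is otherwise known from the testis. It stood at 0.70, 0.568 and 0.807 CPM in the controls and at 9.79, 8.24 and 6.68 CPM in lines 14, 19 and 319. No knockout value came near a control value, and the rise was 11.9-fold (log2 fold change 3.57 ± 0.32, adjusted p = 5.2e-05). Chrna3 (chromosome 9, 55010111 to 55026562, minus strand, 6 exons), a subunit of neuronal nicotinic acetylcholine receptors, was at 0.834, 0.768 and 0.781 CPM in the controls and at 6.56, 12.5 and 6.13 CPM in the knockout. The control values were nearly equal and the rise was 10.2-fold (3.35 ± 0.41, adjusted p = 0.0010). Without HM1 replicate 1 or without HM1 replicate 2 its adjusted p was 0.048 and 0.050, and that of Nup210l was 0.0053 and 0.0077.

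Prdm13 (chromosome 4, 21677480 to 21685963, minus strand, 4 exons), a transcription factor of the dorsal spinal cord that favours inhibitory neurons, had the largest log2 fold change of the genes named for their size (3.93 ± 0.75, adjusted p = 0.011). It was at 0.242, 0.267 and 0.416 CPM in the controls and at 5.17, 10.5 and 0.828 CPM in the knockout lines. The groups did not overlap, but lines 14 and 19 rose by 4.09 and 5.11 on the log2 scale against HM1 while line 319 rose by 0.91 against line 1A4. Hhipl2, a relative of the Hedgehog-interacting protein, rose from 0.0808, 0.100 and 0.208 CPM to 1.69, 1.61 and 1.24 CPM (3.46 ± 0.47, adjusted p = 0.0017), and all 3 knockout lines were close to each other. Ndnf, a secreted factor known from neurons, rose from 2.4, 1.97 and 1.46 CPM to 14.3, 21.7 and 5.36 CPM (2.73 ± 0.36, adjusted p = 0.0017), with line 319 the lowest of the knockout lines. Nlrp6, a sensor of the inflammasome family, rose from 0.511, 0.468 and 0.625 CPM to 1.55, 2.95 and 3.44 CPM (2.28 ± 0.30, adjusted p = 0.0017). Without HM1 replicate 2 the adjusted p of Prdm13, Hhipl2, Ndnf and Nlrp6 was 0.10, 0.063, 0.059 and 0.059. Ugt1a9, a glucuronosyltransferase, held 8 counts over the controls and 104 over the knockout lines, but 59.9% of the exon bases of its transcript are shared with other Ugt1a genes, so which of them gave the reads is uncertain.

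The gene named for its size that fell most was Acta2, followed by Postn and Mgam. Acta2 (chromosome 19, 34241090 to 34255590, minus strand, 9 exons), the smooth muscle actin, stood at 49.1, 85.4 and 74.0 CPM in the controls and at 11.7, 6.90 and 3.42 CPM in the knockout lines. The groups lay far apart, and the log2 fold change was -3.45 ± 0.48 (10.9-fold lower, adjusted p = 0.0017). Postn, an extracellular matrix protein of fibroblasts, fell from 1.24, 4.04 and 2.34 CPM to 0.248, 0.275 and 0.207 CPM (-3.38 ± 0.57, adjusted p = 0.0054). Both are markers of feeder fibroblasts, which are described with the other cell types below. Mgam, a starch-digesting enzyme, fell from 10.5, 9.52 and 5.47 CPM to 1.35, 0.790 and 0.932 CPM (-3.04 ± 0.52, adjusted p = 0.0058), with all knockout lines near 1 CPM.

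Aim2 (chromosome 1, 173350879 to 173466040, plus strand, 12 exons), a sensor of DNA in the cytosol, fell from 24.9, 32.2 and 14.6 CPM to 5.27, 5.63 and 1.68 CPM (-2.60 ± 0.35, adjusted p = 0.0017). Pdgfb, a ligand for platelet-derived growth factor receptors, fell from 6.92, 8.28 and 13.9 CPM to 2.00, 1.34 and 1.81 CPM (-2.49 ± 0.33, adjusted p = 0.0017). For both genes line 319 was far below line 1A4, as lines 14 and 19 were below HM1. Smaller but precise falls were found for 4 genes of different roles. The Polycomb methyltransferase Ezh1 fell from 55.4, 62.0 and 54.8 CPM to 24.0, 18.1 and 24.6 CPM (-1.37 ± 0.15, adjusted p = 2.9e-04). Pold2, a subunit of DNA polymerase delta, fell from 178, 172 and 165 CPM to 96.8, 70.5 and 65.9 CPM (-1.16 ± 0.16, adjusted p = 0.0017). Ezh1, Pold2 and Pik3ip1, an inhibitor of PI3-kinase that fell by 2.17 ± 0.29, lie on chromosome 11, and their adjusted p with each chromosome scaled by itself was 0.0018, 0.010 and 0.0033. Doc2a, a calcium sensor of vesicle release, fell by 1.93 ± 0.21 (adjusted p = 2.9e-04), but 39.4% of its exon bases overlap Ino80e on the opposite strand.

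**Figure D3:**
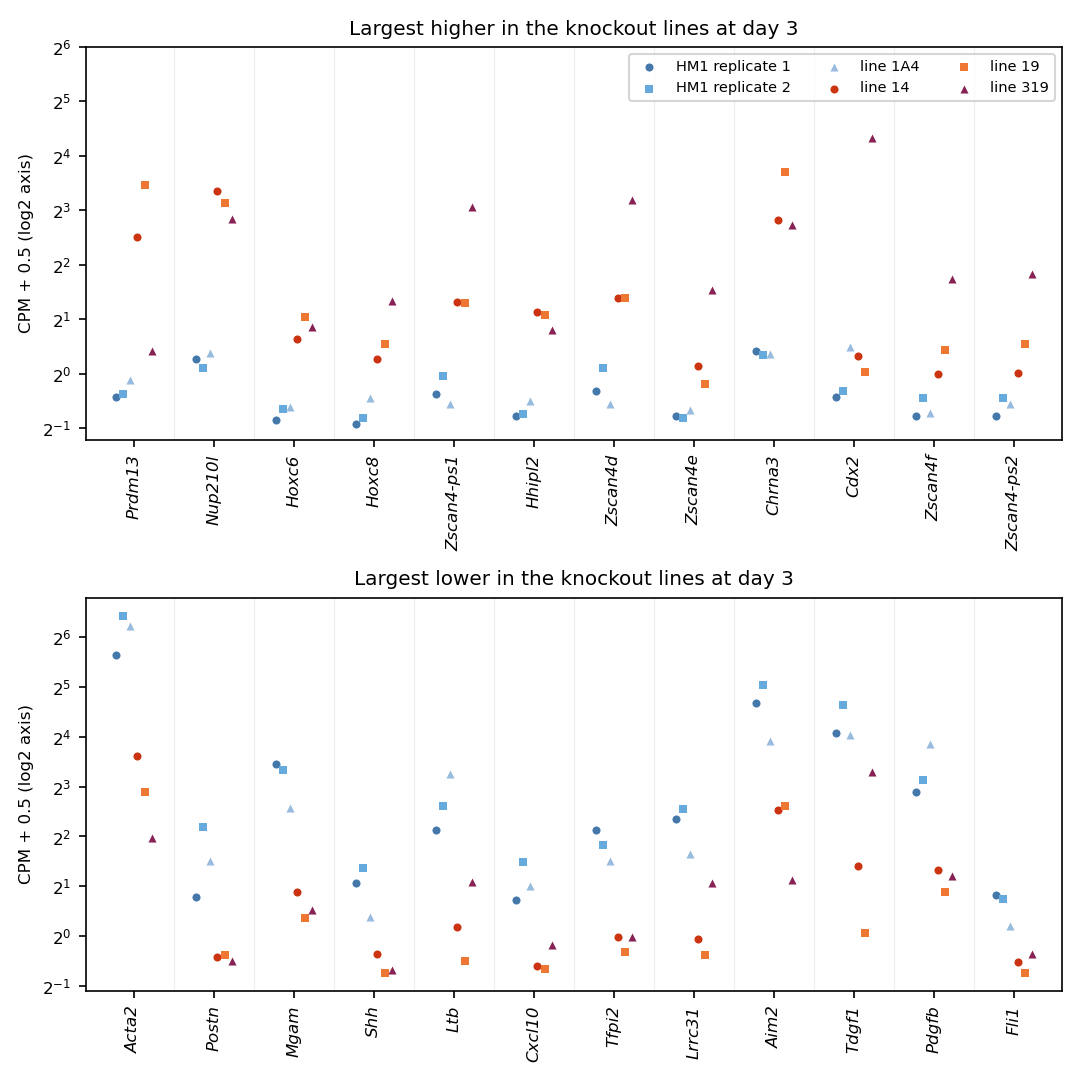
CPM plus 0.5 on a log2 axis in the 6 day 3 samples for the 12 named genes with the largest rise (upper panel) and the 12 with the largest fall (lower panel), each mark being 1 sample. In the upper panel the knockout marks lie above the control marks for each gene but Cdx2, where only line 319 (19.7 CPM) stands far above, and in the lower panel all knockout marks lie below the control marks.

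Among genes of retinoid metabolism and retinoid receptors, 4 of the 21 tested were called higher and 2 lower. These are 19.0% and 9.52% of the list, against 2.75% and 2.44% of all genes. The median log2 fold change of the list was 0.42, against 0.02 for all genes tested. Cyp26a1 (chromosome 19, 37697798 to 37701536, plus strand, 7 exons) encodes the enzyme that degrades retinoic acid and is itself induced by it. Its level was 59.8, 62.9 and 68.3 CPM in the controls and 136, 120 and 195 CPM in lines 14, 19 and 319, so every knockout line was above every control. The rise was 2.36-fold (log2 fold change 1.24 ± 0.30, adjusted p = 0.028). Its adjusted p was 0.17 without HM1 replicate 1, 0.13 without HM1 replicate 2 and 0.071 without line 319.

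The promoter of Cyp26a1 is shown because it carries the direct repeat through which retinoic acid receptors bind. The window runs from 250 bases before to 50 bases after the RefSeq start, at chr19:37697558-37697857 on the plus strand of GRCm38.p6, and the RefSeq start lies 10 bases from that of the counted transcript. Capitals mark 2 copies of the half-site spaced by 5 bases (DR5), read here on the opposite strand and starting at position -32 from the RefSeq start.
Cyp26a1 promoter: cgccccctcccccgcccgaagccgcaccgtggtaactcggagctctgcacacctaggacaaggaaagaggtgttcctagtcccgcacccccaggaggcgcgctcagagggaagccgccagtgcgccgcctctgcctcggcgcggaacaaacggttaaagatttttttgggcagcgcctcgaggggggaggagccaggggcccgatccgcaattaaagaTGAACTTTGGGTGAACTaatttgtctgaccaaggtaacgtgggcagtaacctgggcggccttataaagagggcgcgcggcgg
The half-sites searched were AGGTCA as the common form, AGTTCA as it stands in the Cyp26a1 repeat, GGGTCA as a further variant and GGTTCA as the last variant, in exact letters and on both strands, repeated with a spacer of 5, 2 or 1 bases. Of the called genes of the retinoid and Hox lists with a promoter window, Cyp26a1 alone held a DR5 match, and Rarb, which was not called, held one as well. In all, 7 of 12520 windows held a DR5 match (0.0559%), among them 2 of 343 windows of genes called higher and 0 of 313 of genes called lower. The Cyp26a1 match was fixed in advance, because AGTTCA was searched as it stands in that repeat, and it counts among the genes called higher. Windows were also matched for only 68.5% of the genes tested, so a comparison of these shares is void.

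Enzymes that make retinoic acid, Aldh1a1 and Aldh1a2, were also called higher. Aldh1a1 rose from 0.215, 0.134 and 0.286 CPM to 0.975, 1.68 and 1.29 CPM (2.64 ± 0.47, adjusted p = 0.0069). Aldh1a2, the main retinaldehyde dehydrogenase of the early embryo, rose from 2.4, 1.90 and 1.48 CPM to 7.72, 11.6 and 3.42 CPM (1.92 ± 0.34, adjusted p = 0.0072). In both genes the groups did not overlap. Of the receptors, Rarg fell from 79.2, 87.9 and 107 CPM to 42.8, 26.3 and 81.8 CPM (-0.95 ± 0.23, adjusted p = 0.026), with line 319 inside the control range. Without HM1 replicate 1 the adjusted p of Aldh1a1, Aldh1a2 and Rarg was 0.078, 0.089 and 0.16, and it was 0.10, 0.11 and 0.19 without HM1 replicate 2. The other 2 called members, given after their values were seen, were the binding protein Crabp1 (1.26 ± 0.34, adjusted p = 0.045) and the receptor Rara on chromosome 11 (-0.56 ± 0.15, adjusted p = 0.045). Both lost their call with each chromosome scaled by itself (adjusted p = 0.065 and 0.37), which left 3 members higher and 1 lower. The most abundant members that were not called were Crabp2, at 1000.0, 728 and 1216 CPM against 1110, 1540 and 751 CPM, and Stra8, at 215, 248 and 99.3 CPM against 327, 299 and 410 CPM. Rarb, a classical target of retinoic acid, was at 33.4, 30.2 and 33.0 CPM in the controls and at 73.0, 109 and 32.6 CPM in the knockout lines (1.05 ± 0.37, adjusted p = 0.11), so lines 14 and 19 were above HM1 and line 319 was level with line 1A4.

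The Hox genes, the homeodomain factors that set position along the body axis, were the list with the most called members. Of 39 Hox genes, 33 passed the filter on low counts, and 17 of these were called higher and 0 lower in edgeR's test. The unadjusted p was below 0.05 for 28 higher and 0 lower, or 28 of 33 against 4004 of 18273 over all genes, and DESeq2 called 22 higher and 0 lower. The median log2 fold change over the 33 genes was 1.63, and 32 of the 33 fold changes were positive. The 3 knockout values lay above the 3 control values for 23 genes, as they did for 17.6% of all genes tested. Medians against the controls of each line's own background were 1.38 in line 14, 1.83 in line 19 and 1.15 in line 319. The 6 members below the filter, Hoxa9, Hoxc10, Hoxc11, Hoxc12, Hoxd10 and Hoxd12, were not tested.

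The Hox calls came from all 4 clusters, with 4 of 10 tested in Hoxa, 4 of 10 in Hoxb, 5 of 6 in Hoxc and 4 of 7 in Hoxd. By position, with no test of the difference, they were spread as follows. In paralogue groups 1 to 4, where retinoic acid acts first, 2 of 12 genes were called and the median log2 fold change was 0.97, and with each chromosome scaled by itself 4 were called. In groups 5 to 9 it was 10 of 14 with a median of 1.88, and in groups 10 to 13 it was 5 of 7 with a median of 2.20. The genes of groups 1 to 4 were more abundant, and fold changes of genes near 0 CPM rest on few reads. Hoxb4 stood at 39.7, 36.9 and 50.1 CPM against 37.4, 62.3 and 27.2 CPM (-0.03 ± 0.27, adjusted p = 0.97), and its groups overlapped.

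Hoxb8 (chromosome 11, 96281905 to 96285315, plus strand, 2 exons) and Hoxb9 (chromosome 11, 96271457 to 96276595, plus strand, 2 exons) are neighbours at the 5′ side of the cluster, and both rose. Hoxb8 was at 3.53, 3.27 and 5.83 CPM in the controls and at 17.0, 33.5 and 36.0 CPM in lines 14, 19 and 319 (2.79 ± 0.38, 6.92-fold, adjusted p = 0.0017). Hoxb9 was at 1.88, 1.74 and 3.28 CPM against 9.27, 18.6 and 28.8 CPM (3.00 ± 0.47, adjusted p = 0.0035). In both the lowest knockout line was line 14, and it stood above every control. Hoxd1 rose from 0.754, 1.00 and 1.33 CPM to 4.25, 8.17 and 6.08 CPM (2.65 ± 0.41, adjusted p = 0.0034) and was 1 of the 2 called genes of groups 1 to 4. Hoxc6 rose from 0.0538, 0.134 and 0.156 CPM to 1.06, 1.54 and 1.32 CPM (3.55 ± 0.70, adjusted p = 0.011), and Hoxc8 from 0.0269, 0.0668 and 0.234 CPM to 0.711, 0.961 and 2.02 CPM (3.49 ± 0.64, adjusted p = 0.0085). Chromosome 11 as a whole was lower in the knockout, and with each chromosome scaled by itself 6 of the Hoxb genes and 18 Hox genes in all were called. The number of Hox genes called higher was 0 without HM1 replicate 1 and 1 without HM1 replicate 2, with 24 and 21 at an unadjusted p below 0.05. It was 11 without line 1A4, 11 without line 14, 13 without line 19 and 19 without line 319.

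**Figure D4:**
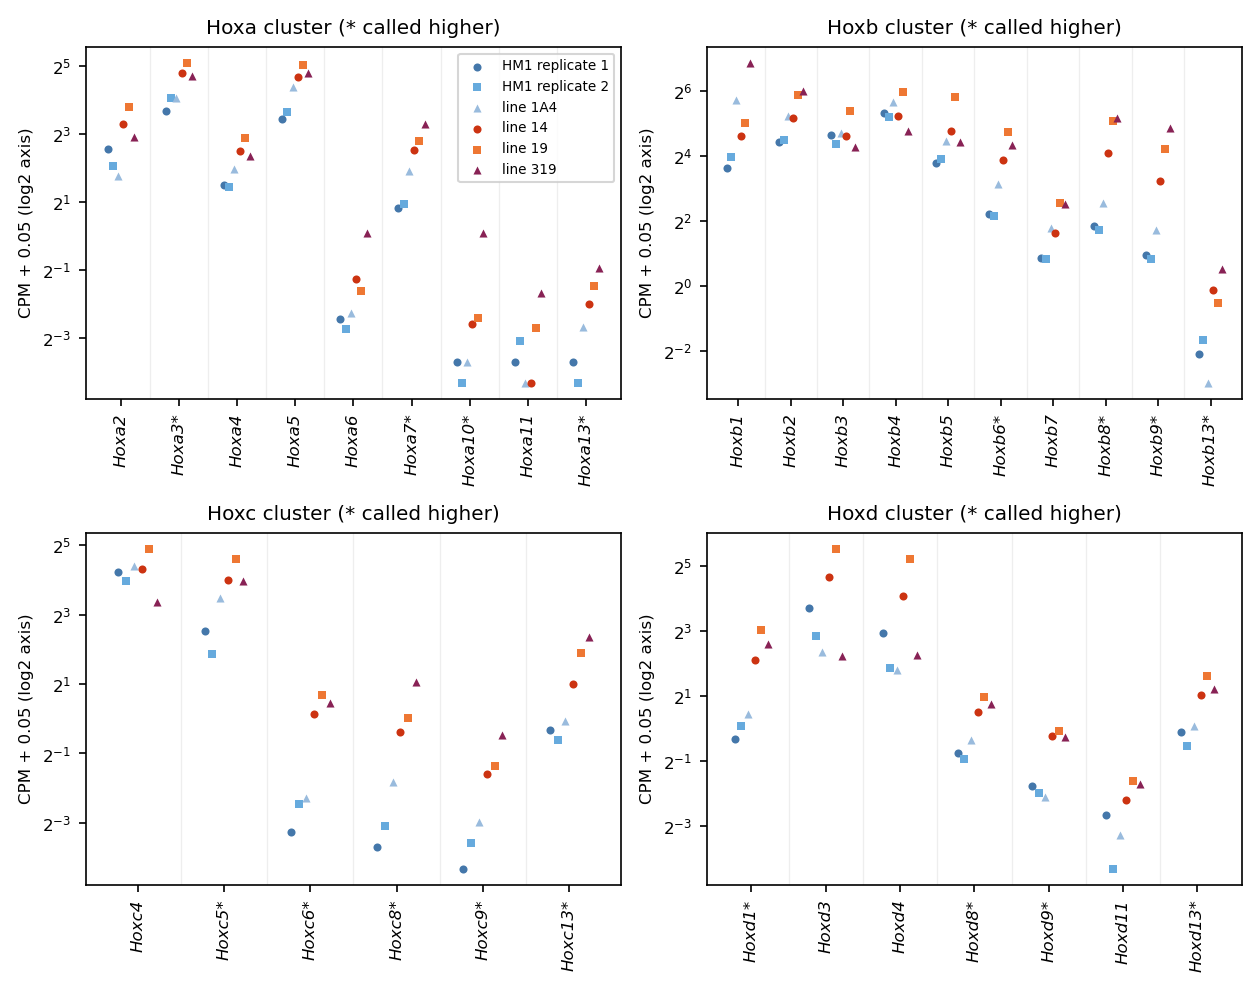
CPM plus 0.05 on a log2 axis for Hox genes of each of the 4 clusters, ordered from the 3′ to the 5′ paralogues, with 1 mark per day 3 sample and a star at each gene called higher. In most of the 5′ genes the knockout marks lie above the control marks, as for Hoxb9 (9.27 to 28.8 CPM against 1.74 to 3.28 CPM), while Hoxb4 shows overlapping groups.

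Factors that work with or upstream of Hox proteins were listed apart. Of 14 Hox cofactors and caudal factors tested, 2 were called, both higher, and the median log2 fold change was 0.18. Meis1, a cofactor that binds DNA with Hox and Pbx proteins, rose from 50.1, 43.4 and 36.9 CPM to 104, 134 and 65.0 CPM (1.16 ± 0.19, adjusted p = 0.0048), and the groups did not overlap. Cdx2, which activates trunk Hox genes, was at 0.242, 0.301 and 0.911 CPM in the controls and at 0.744, 0.515 and 19.7 CPM in the knockout (3.26 ± 0.89, adjusted p = 0.045). Line 319 stood far above all other samples, and lines 14 and 19 lay above HM1 but below line 1A4. Without line 319 Cdx2 lost its call. Meis2, at 140, 141 and 166 CPM against 228, 286 and 204 CPM, was not called.

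Regional factors of the neural tube were the other group with many called members. Of 31 dorsoventral factors tested, 8 were called higher and 1 lower, with a median of 1.26. These are 25.8% and 3.23% of the list, against 2.75% and 2.44% of all genes. Zic1, a factor of the dorsal neural tube, rose from 2.5, 1.87 and 2.73 CPM to 21.5, 23.8 and 10.2 CPM (2.94 ± 0.44, adjusted p = 0.0030). Msx1, a target of BMP signals in the roof plate, rose from 0.70, 0.801 and 0.859 CPM to 4.25, 5.12 and 7.63 CPM (2.83 ± 0.40, adjusted p = 0.0021). In both genes all knockout lines were above all controls. The member that fell was Shh, the ventral signal of the notochord and floor plate, from 1.59, 2.07 and 0.807 CPM to 0.281, 0.103 and 0.129 CPM (-2.99 ± 0.46, adjusted p = 0.0032), although 15.7% and 12.7% of its exon bases overlap 9530036O11Rik and Gm26894 on the opposite strand. Prdm13, described above, also belongs here. Foxa2, a floor plate factor, was not called at 8.18, 8.78 and 7.39 CPM against 5.67, 5.32 and 7.74 CPM, nor was Zic2 at 43.0, 50.6 and 55.3 CPM against 45.6, 39.5 and 40.1 CPM. Without HM1 replicate 2 the adjusted p of Zic1, Msx1 and Shh was 0.063, 0.060 and 0.066. No dorsoventral factor was called higher when HM1 replicate 1 or HM1 replicate 2 was left out.

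Of 16 forebrain and midbrain factors tested, 6 were called, all higher (37.5%, against 2.75% of all genes), and the median was 1.11. Fezf2, a forebrain factor, rose from 0.511, 0.20 and 0.286 CPM to 3.79, 2.88 and 1.60 CPM (2.97 ± 0.58, adjusted p = 0.011). Otx2, which marks the forebrain, the midbrain and the epiblast, was not called at 2.67, 3.54 and 3.31 CPM against 1.31, 1.27 and 1.94 CPM. Of 15 hindbrain factors, 4 were called, all higher (26.7%), with a median of 0.76. Leaving out HM1 replicate 1 or HM1 replicate 2 left no called member in the forebrain and midbrain list or the hindbrain list. Irx5 on chromosome 8 rose from 4.28, 3.47 and 2.42 CPM to 17.0, 23.6 and 5.02 CPM (2.04 ± 0.36, adjusted p = 0.0066), and Fgf3, a signal of the early hindbrain, from 0.592, 0.401 and 0.651 CPM to 1.54, 2.75 and 2.02 CPM (1.95 ± 0.48, adjusted p = 0.030).

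General neural progenitor factors were called in both directions. Of 20 tested, 3 were called higher (15% against 2.75% of all genes) and 1 lower, and the median was 0.18. Without line 319, 7 were called higher, when 915 of 18672 genes tested were, against 502 with it. Pax6 (chromosome 2, 105675513 to 105697361, plus strand, 14 exons), a factor of neural progenitors, was at 42.5, 24.5 and 23.5 CPM in the controls and at 179, 322 and 36.4 CPM in the knockout lines (2.25 ± 0.45, adjusted p = 0.012). Line 319 lay between the control values, while lines 14 and 19 were 4-fold or more above every control. Sox21, which promotes neurogenesis, rose from 12.0, 9.75 and 5.02 CPM to 50.2, 45.0 and 11.3 CPM (1.82 ± 0.27, adjusted p = 0.0030), with 18.8% of its exon bases overlapped by Gm4675 on the opposite strand. Sox9 on chromosome 11, a factor of glial and crest fates, fell by 1.36 ± 0.32 (adjusted p = 0.024), and its adjusted p was 0.067 with each chromosome scaled by itself. Nes, the intermediate filament of neural progenitors, stood at 161, 136 and 214 CPM against 273, 444 and 171 CPM and was not called (0.70 ± 0.34, adjusted p = 0.24).

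Genes of neuronal differentiation and of axon guidance were listed apart. Of 29 proneural and early neuron genes tested, 2 were called higher and 1 lower, with a median of 0.29. These are 6.90% and 3.45% of the list, against 2.75% and 2.44% of all genes. Pou4f1, a factor of sensory neurons, rose from 5.81, 6.35 and 6.46 CPM to 12.7, 19 and 12.7 CPM (1.26 ± 0.20, adjusted p = 0.0042). Elavl4, an RNA-binding protein of neurons, fell from 11.1, 12.2 and 6.98 CPM to 4.73, 4.05 and 1.42 CPM (-1.64 ± 0.37, adjusted p = 0.021). In neither gene did the groups overlap, and they moved in opposite directions. Of 35 axon guidance genes, 4 were called, all higher (11.4%), with a median of 0.44. Without line 319, 14 were called higher and 1 lower, when 915 and 1105 of 18672 genes tested were. Draxin, a repulsive guidance protein of dorsal spinal cord, was at 2.07, 2.10 and 1.90 CPM against 4.31, 4.63 and 4.45 CPM (1.14 ± 0.20, adjusted p = 0.0075), with little spread within either group. Unc5c, a netrin receptor, rose by 1.71 ± 0.41 and Sema3a, a repulsive semaphorin, by 1.83 ± 0.47 (adjusted p = 0.027 and 0.037).

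Naive pluripotency genes differed in direction between the knockout lines, a difference that was not tested for the list. Of 23 naive pluripotency genes, 1 was called higher and 2 lower, and the median log2 fold change was -0.53. Against the controls of their own background the medians were -0.78 in line 14, -2.01 in line 19 and 0.50 in line 319. Without line 319, 11 members were called lower, when 1105 of 18672 genes tested were, against 446 with it. Nanog, a central factor of the naive state, was at 64.3, 84.6 and 66.4 CPM in the controls and at 24.1, 9.85 and 71.3 CPM in the knockout lines (-1.23 ± 0.51, adjusted p = 0.17). Lines 14 and 19 were thus below HM1 and line 319 was slightly above line 1A4. Tdgf1, the co-receptor of Nodal, was at 16.3, 24.3 and 15.8 CPM against 2.17, 0.549 and 9.34 CPM (-2.55 ± 0.68, adjusted p = 0.041). Klf2 on chromosome 8 fell by 1.47 ± 0.39, but with each chromosome scaled by itself it stood at -1.16 and was not called (adjusted p = 0.13). Spp1 rose by 1.44 ± 0.35 from 36.6, 34.9 and 22.8 CPM to 78.2, 57.1 and 146 CPM, with 18.8% of its exon bases shared with Gm42793. Of 14 general pluripotency genes none was called by edgeR (median -0.19), with 1 higher and 2 lower at an unadjusted p below 0.05 and 1 lower by DESeq2. Lin28a, an RNA-binding protein of early embryonic cells, was at 586, 596 and 738 CPM against 735, 797 and 783 CPM. Of 17 formative and primed epiblast genes 1 was called, Fgf15, a growth factor of the neural tube that rose by 1.88 ± 0.36 (adjusted p = 0.011), with 24.9% of its exon bases overlapped by Gm26793 on the opposite strand.

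Of 23 mesendoderm and primitive streak genes tested, 3 were called higher and 1 lower, with a median of 0.54. Lhx1 (chromosome 11, 84518284 to 84525535, minus strand, 5 exons), a factor of the anterior streak and of spinal interneurons, rose from 6.49, 5.11 and 15.5 CPM to 24.6, 34.1 and 68.1 CPM (2.24 ± 0.46, adjusted p = 0.013). Against its own background each line was higher, by 2.09, 2.56 and 2.13 on the log2 scale. Aplnr, the apelin receptor of early mesoderm, fell from 1.29, 2.57 and 1.17 CPM to 0.380, 0.137 and 0.543 CPM (-2.10 ± 0.54, adjusted p = 0.037). Pdgfra, at 4.09, 3.81 and 3.77 CPM against 11.6, 9.58 and 10.9 CPM (1.46 ± 0.30, adjusted p = 0.015), and Gata4, at 3.26, 3.54 and 6.01 CPM against 9.57, 8.45 and 14.5 CPM (1.36 ± 0.31, adjusted p = 0.023), were the other called members, and both also mark extraembryonic endoderm.

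Markers of the other cell types that the cultures could hold were measured as whole lists. The 20 feeder fibroblast markers tested summed to 633 to 856 CPM in the controls and 360 to 566 CPM in the knockout lines, and all 20 exceeded 1 CPM in at least 1 sample. Of them, 4 were called lower and 0 higher in edgeR's test (4 higher and 7 lower at an unadjusted p below 0.05, 2 higher and 5 lower by DESeq2), with a median of -0.40. Besides Acta2 and Postn, these were Tagln, an actin-binding protein of smooth muscle, at 81.1, 101 and 145 CPM against 39.2, 28.3 and 19.8 CPM (-2.06 ± 0.49, adjusted p = 0.026), and Ccn1, a matricellular protein, at 63.7, 124 and 113 CPM against 29.3, 47.3 and 35.4 CPM (-1.45 ± 0.36, adjusted p = 0.031). Tagln shares 62.4% of its exon bases with Gm48529 on the opposite strand. Col1a1, the main fibroblast collagen, was at 57.9, 97.1 and 89.0 CPM against 64.6, 37.0 and 42.6 CPM and was not called. The summed level of these markers, which includes the called members, thus differed between the groups without overlap. Single markers went both ways, with 8 positive and 12 negative log2 fold changes. The knockout values lay above all control values for 4 markers and below them for 9, against 17.6% of all genes each way. The part of this sum in the falls of Acta2, Postn and the other genes above was not tested.

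The other marker lists showed overlapping sums. The 24 extraembryonic endoderm genes tested summed to 1274 to 1327 CPM in the controls and 1230 to 1515 CPM in the knockout lines, and 5 were called, all higher, with a median of 0.23. Thbd, thrombomodulin, rose from 2.07, 2.87 and 1.59 CPM to 7.06, 5.46 and 7.50 CPM (1.66 ± 0.43, adjusted p = 0.038). Neural crest markers summed to 74.2 to 98.7 CPM against 47.3 to 75.9 CPM, with 1 of 13 called higher and 3 lower. Those that fell were Sox9, Ets1, an ETS factor (-1.18 ± 0.29, adjusted p = 0.029), and Erbb3, a neuregulin receptor (-1.19 ± 0.33, adjusted p = 0.048). With each chromosome scaled by itself Ets1 was the only one of these called, and the adjusted p of Erbb3 was 0.051. Surface ectoderm markers summed to 158 to 336 CPM against 69.4 to 170 CPM, and the keratin Krt18 was the only called member, lower in the knockout (-1.62 ± 0.45, adjusted p = 0.050). Trophectoderm markers summed to 36.0 to 48.5 CPM against 18.8 to 71.7 CPM. Neural progenitor factors summed to 1024 to 1184 CPM against 913 to 2005 CPM, and line 319 was the lowest of the knockout lines.

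The other subunits of the Y-complex were not called beside Nup133. None of the 8 tested passed in edgeR's test, 1 was higher at an unadjusted p below 0.05, and 1 was called higher by DESeq2. Their median was 0.00 and their log2 fold changes lay between -0.26 and 0.37. Ahctf1, the subunit that binds chromatin, stood at 247, 240 and 259 CPM against 260, 302 and 289 CPM, and Seh1l at 202, 195 and 194 CPM against 194, 235 and 181 CPM. Of the 22 other nucleoporins, 1 was called higher, Nup210l, and 1 lower, Nup88 on chromosome 11, a subunit of the cytoplasmic face, at 228, 220 and 199 CPM against 164, 162 and 134 CPM (-0.50 ± 0.12, adjusted p = 0.025). With each chromosome scaled by itself the adjusted p of Nup88 was 0.43. Tpr, the filament protein of the nuclear basket, was at 345, 329 and 324 CPM against 454, 544 and 432 CPM and missed the threshold (0.52 ± 0.16, adjusted p = 0.076), although the groups did not overlap. None of 29 nuclear transport factors (median 0.14) and none of 14 lamina and envelope genes (median 0.11) was called by edgeR or by DESeq2. At an unadjusted p below 0.05 there were 3 higher and 1 lower in the first list and 2 higher and 2 lower in the second, where the share over all genes was 21.9%. The import receptor Kpnb1 stood at 1243, 1191 and 1279 CPM against 1239, 1290 and 1125 CPM.

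In the signalling lists, single genes were called. Over all genes, 2.75% were called higher and 2.44% lower. Of 29 Wnt pathway genes, 2 were called higher and 2 lower (6.90% each), with a median of 0.33. Frzb, a secreted Wnt antagonist, rose from 2.64, 1.87 and 2.73 CPM to 10.7, 16.5 and 6.42 CPM (2.10 ± 0.34, adjusted p = 0.0047), and the stem cell receptor Lgr5 rose by 1.44 ± 0.33 (adjusted p = 0.022). The receptor Fzd5 fell by 0.90 ± 0.23 and the transcription factor Tcf7 on chromosome 11 by 0.82 ± 0.23, and with each chromosome scaled by itself Tcf7 lost its call. Of 21 FGF pathway genes, 2 were called higher (9.52%), Fgf3 and Fgf15, and 1 lower (4.76%), the feedback inhibitor Spry1 (-0.99 ± 0.26, adjusted p = 0.043). Of 20 BMP and Nodal pathway genes, 1 was called, Tdgf1, which was lower (5.0% of the list), and the median was -0.60. Lefty1, an inhibitor of Nodal, was at 105, 194 and 231 CPM in the controls and at 30.2, 7.62 and 250 CPM in the knockout lines, so lines 14 and 19 were low and line 319 high.

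Of 17 Notch pathway genes, 2 were called, both lower (11.8%, against 2.44% of all genes), with a median of -0.20. Lfng, the glycosyltransferase that tunes Notch receptors, fell from 59.4, 45.4 and 62.7 CPM to 24.2, 19.2 and 15.2 CPM (-1.50 ± 0.33, adjusted p = 0.019). Hey1, a Notch target, fell from 11.4, 10.1 and 8.23 CPM to 5.80, 6.35 and 3.54 CPM (-0.96 ± 0.20, adjusted p = 0.015). All knockout lines were below all controls in both. Of 13 Hedgehog pathway genes Shh was the only one called, lower (7.69% of the list). The receptor Ptch1, also a target of the pathway, stood at 159, 190 and 153 CPM against 263, 198 and 178 CPM (0.34 ± 0.27, adjusted p = 0.50).

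Genes of cholesterol and fatty acid synthesis were called in 1 direction. Of 26 tested, 6 were called, all lower, the median was -0.42, and 22 of the 26 fold changes were negative. All 3 knockout values were below all 3 control values for 17 genes, as they were for 17.6% of all genes tested. Medians by line were -0.27, -0.43 and -0.50. Fasn (chromosome 11, 120805846 to 120824547, minus strand, 43 exons), the fatty acid synthase, stood at 2171, 2120 and 1988 CPM in the controls and at 1258, 817 and 971 CPM in the knockout (-1.04 ± 0.21, adjusted p = 0.013). Mvd on chromosome 8, an enzyme of the mevalonate pathway, fell from 137, 127 and 178 CPM to 85.7, 53.1 and 63.8 CPM (-1.12 ± 0.24, adjusted p = 0.016), and Lss, lanosterol synthase, from 318, 306 and 334 CPM to 206, 162 and 218 CPM (-0.71 ± 0.16, adjusted p = 0.021). Several of these genes lie on chromosomes 8 and 11, and with each chromosome scaled by itself 3 were called and the adjusted p of Fasn was 0.060. Hmgcs1, which makes the precursor of mevalonate, was at 959, 887 and 768 CPM against 630, 678 and 633 CPM and was not called (-0.42 ± 0.20, adjusted p = 0.24). The called number was 0 with HM1 replicate 1 or HM1 replicate 2 left out, 1 without line 1A4 and 14 without the day 2 sample of line 19. Over all genes, the number called lower went from 446 to 19, 12, 193 and 1496 under these settings, in the same order.

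Targets of p53 that were called all rose. Of 19 tested, 3 were called, all higher, the median was 0.74 and 16 fold changes were positive. The groups did not overlap for 12 higher and 2 lower members, against 17.6% of all genes each way. No member was called when HM1 replicate 1, HM1 replicate 2 or line 1A4 was left out. Plk2, a kinase induced by p53, rose from 52.0, 38.9 and 61.5 CPM to 102, 162 and 171 CPM (1.52 ± 0.38, adjusted p = 0.034), and Ei24 from 110, 99.9 and 110 CPM to 138, 170 and 184 CPM (0.62 ± 0.14, adjusted p = 0.019). Ccng1, a strong p53 target on chromosome 11, was at 538, 450 and 447 CPM against 630, 946 and 1001 CPM and missed the threshold (0.84 ± 0.25, adjusted p = 0.066), but with each chromosome scaled by itself it stood at 1.15 and passed (adjusted p = 0.021). Of 20 genes of the integrated stress response, 4 were called lower and 1 higher, with a median of -0.21. Asns, asparagine synthetase, fell from 271, 275 and 240 CPM to 139, 120 and 170 CPM (-0.87 ± 0.16, adjusted p = 0.0081), whereas Sesn2, a stress-induced inhibitor of mTORC1, rose from 108, 98.6 and 85.1 CPM to 169, 204 and 209 CPM (1.00 ± 0.16, adjusted p = 0.0044). Atf4, the factor that drives this response, was at 164, 165 and 119 CPM against 108, 127 and 204 CPM and was not called. In the glycolysis and hypoxia list Vegfa fell by 0.93 ± 0.21 (adjusted p = 0.020), and the other 22 genes were not called.

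The two-cell-like genes, active in the early embryo and in rare cells of stem cell cultures, had their highest levels in line 319. All 6 tested had knockout values above all control values, against 17.6% of all genes. Of the 6, 4 were called higher, and the median was 2.76. Medians by line were 1.15, 1.54 and 4.27. Zscan4d stood at 0.296, 0.568 and 0.182 CPM in the controls and at 2.12, 2.13 and 8.59 CPM in the knockout (3.39 ± 0.67, adjusted p = 0.012). Zscan4f, Zscan4e and the pseudogenes Zscan4-ps1 and Zscan4-ps2 rose by 3.00 to 3.46 on the log2 scale. These genes are near-identical copies, so how reads were split among them is uncertain. Tcstv3, another member of a multigene family, held 2 counts over the controls and 22 over the knockout lines. Among 16 germline genes normally silenced by methylation, 1 was called, Taf7l on the X chromosome, at 1.70, 1.40 and 2.13 CPM against 3.19, 3.64 and 19.9 CPM. Its highest value was in line 319, which is labelled XX while the controls are labelled XY, and the part of this in the result was not tested.

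Interferon-stimulated genes differed in size between the knockout lines. Of 25 tested, 3 were called, all lower, and the median was -0.95, with medians of -1.18, -1.33 and -0.17 in lines 14, 19 and 319. Without line 319, 13 were called lower, when 1105 of 18672 genes tested were, against 446 with it. Stat2, a transducer of the interferon signal, fell from 63.4, 61.5 and 59.0 CPM to 35.5, 27.2 and 32.5 CPM (-0.95 ± 0.14, adjusted p = 0.0032), and the groups were well apart. Bst2 on chromosome 8, a membrane protein that tethers virus particles, fell by 1.45 ± 0.37 (adjusted p = 0.036), and its adjusted p was 0.064 with each chromosome scaled by itself. B2m, the light chain of class I molecules, was at 44.6, 46.2 and 42.5 CPM against 42.3, 43.7 and 37.7 CPM and was not called.

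Of 20 cadherin and epithelial genes, 2 were called, both lower, with a median of -0.27. Cdh3 on chromosome 8, P-cadherin, fell from 23.9, 32.8 and 35.2 CPM to 9.85, 5.56 and 13.9 CPM (-1.64 ± 0.36, adjusted p = 0.019), and the tight junction protein Cldn4 from 58.5, 81.3 and 116 CPM to 20.9, 11.2 and 54.3 CPM (-1.65 ± 0.39, adjusted p = 0.026). Cdh1, E-cadherin, also on chromosome 8, was at 361, 444 and 598 CPM against 176, 112 and 376 CPM and was not called (-1.09 ± 0.38, adjusted p = 0.11). Among 15 immediate early genes 2 were called lower and 1 higher, with a median of -0.53. Myc (chromosome 15, 61985391 to 61990350, plus strand, 3 exons), a growth-promoting factor, rose from 6.14, 7.01 and 10.1 CPM to 30.1, 42.3 and 22.6 CPM (2.10 ± 0.28, adjusted p = 0.0017), while the RNA-destabilising Zfp36 fell from 7.05, 15 and 14.2 CPM to 2.96, 2.09 and 4.79 CPM (-1.87 ± 0.40, adjusted p = 0.017). Without HM1 replicate 2 the adjusted p of Myc was 0.063.

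Of 30 cell cycle genes 1 was called higher, the cyclin Ccnd2 (1.92 ± 0.46, adjusted p = 0.028), and 1 lower, Aurkb on chromosome 11 (-0.62 ± 0.11, adjusted p = 0.0083), and the median was -0.01. These calls are 3.33% of the list each way, near the 2.75% higher and 2.44% lower of all genes. With each chromosome scaled by itself Aurkb stood at -0.31 and lost its call (adjusted p = 0.15). Mki67, a marker of cycling cells, was at 564, 502 and 500 CPM against 533, 573 and 520 CPM. Of 25 imprinted genes 1 was called (4.0%, against 5.19% of all genes called either way). It was Phlda2, a growth-restraining gene, lower at 16.3, 18.8 and 15.4 CPM against 9.77, 4.33 and 7.69 CPM (-1.19 ± 0.27, adjusted p = 0.023). None of the 7 mitochondrially encoded genes tested was called by edgeR or DESeq2 or had an unadjusted p below 0.05.

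**Figure D5:**
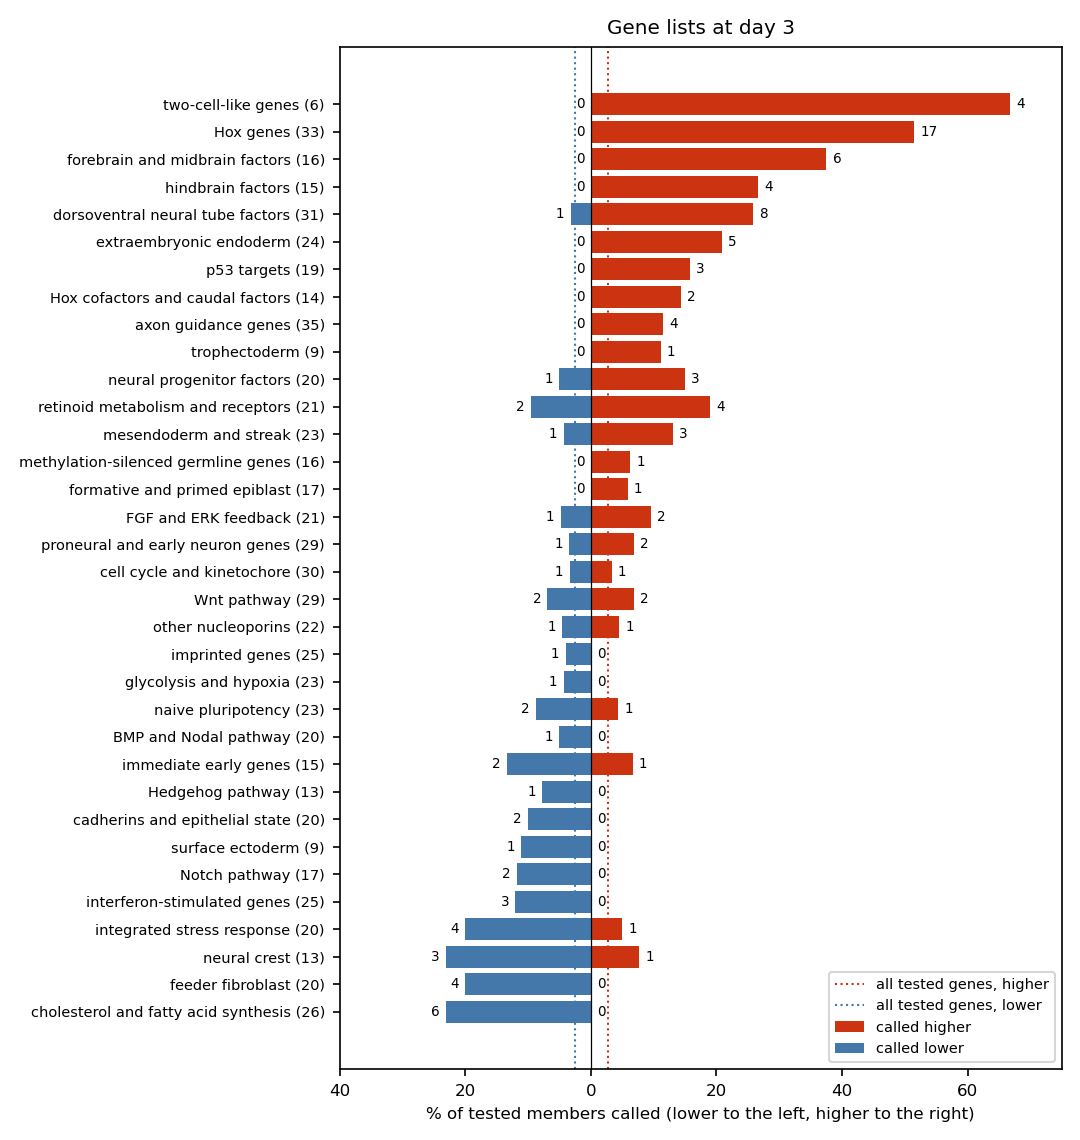
For each gene list with at least 1 called member, bars to the right give the percentage of tested members called higher in the knockout and bars to the left the percentage called lower, with the number tested in parentheses and dotted lines at the shares over all genes tested (2.75% higher and 2.44% lower). The longest bars to the right belong to the two-cell-like genes (4 of 6) and the Hox genes (17 of 33), and the longest to the left to the neural crest (3 of 13) and the cholesterol and fatty acid lists (6 of 26), which fell to 1 and 3 with each chromosome scaled by itself.

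Scaling each chromosome by itself changed the counts of further lists. Those called higher went from 6 to 4 for forebrain and midbrain factors, from 8 to 7 for dorsoventral factors, from 5 to 3 for extraembryonic endoderm genes and from 4 to 3 for two-cell-like genes. They went from 2 to 1 for Hox cofactors and caudal factors and from 1 to 0 for trophectoderm genes, Cdx2 losing its call in both. Those called lower went from 3 to 1 for neural crest genes, from 4 to 2 for the integrated stress response and from 3 to 2 for interferon-stimulated genes. They went from 2 to 1 for naive pluripotency, Wnt pathway and immediate early genes, and from 1 to 0 for neural progenitor factors, surface ectoderm, other nucleoporins and cell cycle genes. Other nucleoporins went from 1 to 2 higher, and 1 more member was called higher among Hedgehog pathway, imprinted, and cadherin and epithelial genes.

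Apart from Vcan and Fasn, the most abundant called genes off the sex chromosomes and chromosomes 8 and 12 had small fold changes. Hnrnpu, a nuclear matrix RNA-binding protein, was at 891, 869 and 886 CPM against 1192, 1645 and 1274 CPM (0.63 ± 0.16, adjusted p = 0.036), and the mitochondrial chaperonin Hspd1 at 556, 503 and 615 CPM against 754, 1108 and 715 CPM (0.63 ± 0.16, adjusted p = 0.037). The splicing factor Sfpq, the endoplasmic reticulum isomerase Pdia3 and Ddx39b, a helicase of messenger RNA export, rose by 0.61 ± 0.16, 0.66 ± 0.16 and 0.66 ± 0.14. Vcan, a matrix proteoglycan, rose from 204, 146 and 147 CPM to 362, 614 and 232 CPM (1.25 ± 0.34, adjusted p = 0.045). Among those that fell, besides Fasn, were Scd1, a fatty acid desaturase (-0.84 ± 0.23, adjusted p = 0.050), and Psat1, an enzyme of serine synthesis (-0.55 ± 0.14, adjusted p = 0.033). The chaperonin subunit Cct4, the actin Actg1 and the translation regulator Larp1 lie on chromosome 11, and with each chromosome scaled by itself none of these 3 was called (adjusted p = 0.27, 0.25 and 0.21).

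Among called genes with at least 5 CPM in the higher group, off chromosomes 8 and 12 and the sex chromosomes, the genes in which the knockout lines differed most included Tdgf1, Prdm13, Cdx2, Pax6 and Pramef12. In Tdgf1, Prdm13 and Pax6, line 19 showed the largest change and line 319 the smallest. Pramef12, of a gene family known from germ cells, was at 19.6, 24.1 and 16.6 CPM against 7.31, 3.50 and 15.2 CPM (-1.42 ± 0.38, adjusted p = 0.041), again with line 319 nearest to its control. Cdx2 was the reverse, with its large value in line 319 alone.

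The day 3 calls were set beside the earlier days of the same lines. The day 2 sample of line 19 had the fewest gene counts (16466730) and genes detected (14583) of the 18 samples. Its TMM factor was 0.806, against 0.873 to 1.16 in the others. Leaving it out moved the number of day 3 calls from 948 to 2994. The day 2 values below include this sample, and day 2 calls without it are not given. Of the 502 genes called higher at day 3, 438 (87.3%) had a positive log2 fold change at day 2, before retinoic acid, and 47 were also called higher there, when 116 of all genes (0.635%) were. Of the 446 called lower, 408 (91.5%) were negative at day 2 and 78 were also called lower, when 176 of all genes (0.963%) were. In the opposite direction, 3 of the higher genes and 0 of the lower ones were called at day 2. At day 0 the sign was the same for 323 of the higher genes (64.3%) and 374 of the lower ones (83.9%). Of the higher genes, 2 were also called higher at day 0 and 4 were called lower. Of the lower genes, 31 were also called lower and 0 higher. Over all genes at day 0, 12 (0.0657%) were called higher and 144 (0.788%) lower. The share with the same sign over all genes tested was 62.2% at day 2 and 59.9% at day 0. The change of the genotype difference from day 2 to day 3 passed the test for 7 genes (0.0383%). With the series of line 19 left out it also passed for 7 genes, which are not listed here. Cyp26a1 was at 4.83, 5.33 and 4.28 CPM in the day 2 controls and at 0.266, 0 and 0.130 CPM in the day 2 knockout samples, so its direction at day 3 was opposite (change of 5.94 ± 0.55, adjusted p = 2.3e-04). Lhx1 likewise was at 4.88, 5.65 and 4.87 CPM against 0.285, 0 and 0.475 CPM at day 2 (change of 6.44 ± 0.75, adjusted p = 0.0025). Nup210l was already higher at day 2, at 0.831, 0.884 and 0.667 CPM against 3.90, 5.35 and 4.28 CPM, and its change from day 2 to day 3 did not pass the test (1.08 ± 0.42, adjusted p = 0.53). Hoxb9 was at 0.270, 0.465 and 0.303 CPM against 0.0950, 0.0754 and 1.17 CPM at day 2, with lines 14 and 19 below HM1 and line 319 above line 1A4, and its change to day 3 was 3.04 ± 0.74 (adjusted p = 0.26).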

How the data were processed

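RNA was sequenced as stranded poly(A) libraries, per the labels. The authors deposited raw read counts per Ensembl transcript, in 4 technical files per sample. The submitters' processing notes name bcl2fastq 2.17.1.14, STAR 2.4.0k, SAMtools, HTSeq and build mm10, and the strand setting and annotation release are not given in the sources used here. The 4 files of a sample were added up, and the transcript with the highest total stood for its gene (GENCODE, GRCm38). Counts were fitted with edgeR 4.0.16 (R 4.3.3, limma 3.58.1) by quasi-likelihood, with TMM scaling and the filterByExpr filter, over all 18 samples with a term for background, and p-values were adjusted by Benjamini-Hochberg over all 18273 genes tested. The call threshold was an adjusted p of 0.05. DESeq2 1.42.0 was an alternative. The scripts were tested on simulated data. Differences of a line from its own background used log2 CPM with a prior count of 2. Sex and aneuploidy labels were compared with gene levels by chromosome. Members and lists were chosen with earlier results of these data known. Named are Nup133, the 12 called genes with the largest change in each direction among those with at least 1 CPM in the higher group, the same sign in all 3 lines, a gene symbol that is no clone or predicted name, and a position off chromosomes 8 and 12, the sex chromosomes and mitochondrial DNA, under the same limits the 6 most abundant and the 6 with the smallest p each way, up to 4 called and 2 uncalled members of each list, and, off the same chromosomes and at 5 CPM or more, the 6 called genes with the widest range between lines. Some genes that this rule names are not reported here.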

Additional observations from a re-analysis of the deposited data

Results flagged for a closer look

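The knockout effect at day 3 differed between the blastocyst-derived and the HM1-derived lines, by a test of the difference itself in edgeR, for 4 genes on the sex chromosomes. The difference in log2 fold change was -6.67 for Eif2s3y on the Y chromosome. It was 4.64 for Pnma5, 5.34 for Xist and 4.77 for Xlr3a, all on the X chromosome. Xist, the RNA that coats the inactive X, was at 1.72, 1.5 and 3.64 CPM in the controls and at 5.41, 5.6 and 503 CPM in lines 14, 19 and 319, of which line 319 is labelled XX.

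The knockout effect changed between day 2 and day 3, by the same kind of test, for 7 genes. The change was 6.89 on the log2 scale for Cer1, 6.44 for Lhx1, 5.94 for Cyp26a1, 3.85 for Frzb and 2.66 for Nlrp6. It was -3.23 for Kcnc2 and -3.79 for Wfikkn1. Wfikkn1, a protease inhibitor that binds growth factors, was at 43.2, 33.4 and 42.1 CPM in the day 3 controls and at 5.83, 4.43 and 19.5 CPM in the knockout lines. Cer1, a secreted inhibitor of Nodal and BMP, held 6 counts over the day 3 controls and 22 over the knockout lines, so its day 3 level rests on few reads.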

How the results depend on the processing

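The number of genes called at day 3 moved with the setting. It was 2063 (1088 higher, 975 lower) with DESeq2, 2546 (1132 and 1414) with the day 3 samples alone, and 516 (286 and 230) with no background term. With 3 alternatives chosen after seeing the data, it was 588 (329 and 259) without chromosomes 8, 11, 12, X and Y, 754 (428 and 326) with each chromosome scaled by itself, and 2994 (1498 and 1496) without line 19 at day 2. Leaving out 1 series of samples at a time gave 17 to 2020 called genes, 5 to 915 higher and 12 to 1105 lower. The share of higher calls was 53% in the report, 44.5% with the day 3 samples alone and 29.4% without HM1 replicate 2. The cause was not tested.

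The genes whose effect differs between backgrounds numbered 0 without chromosomes 8, 12, X and Y (1357 at an unadjusted p below 0.05; DESeq2 was not run on this contrast) and 465 with no filter on low counts. Calls in the HM1-derived lines numbered 2237 with no filter and 1 to 8095 when 1 sample series was left out, and the change from day 2 to day 3 was called for 1 to 133 genes. Hox genes called higher numbered 10 with all transcripts of a gene added up and 0 to 19 with 1 series left out. Pnma5 reversed from 0.26, not called, to -1.17 in the HM1-derived lines alone, to -1.07 without line 1A4 and to -1.20 without line 319, and ranged up to 1.14 with another series left out.

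With the series of samples as a random replicate block (limma voom), 1303 genes were called, 654 higher and 649 lower, with a block correlation of 0.00946. Genes near 0 CPM rest on few reads, and 3 samples a group limit every call.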
